A study of Mus musculus with 12 samples.

Results

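The proteasome genes of regulatory T cells (Tregs) were examined by RNA sequencing of sorted cells. The members were taken by symbol: Psm, a letter from a to g, then a number. This pattern matched 48 of the 24419 symbols listed, and 46 of the 48 had a mean normalized count of at least 10 in each of the 4 tables of the series and were tested there. The other two were Psma8, an alpha subunit of the testis, at 0 in every table, and Psmb11, the catalytic subunit of thymic cortical epithelium, at 0 to 0.236. The tested members began well above the limit of 10, with the lowest, the assembly chaperone Psmg3, at 22.9 in the 12-4.4m1 tissue table.

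The cells came from NOD mice, an inbred strain prone to autoimmune diabetes, aged 6.8 weeks. The mice were retrogenic, so their T cells grew from bone marrow into which T cell receptor (TCR) genes had been introduced, and both receptors recognise insulin. Receptor 4-8 is the high affinity one and 12-4.4m1 the low affinity one. Cells carrying either were sorted from pancreatic islets and from spleen, which gave 4 groups of 3 libraries: islet 4-8, islet 12-4.4m1, spleen 4-8 and spleen 12-4.4m1. With 1 TCR per affinity, the affinity and whatever else sets the receptors apart cannot be told apart. The labels do not say whether libraries came from separate mice. A p-value therefore weighs a difference only against the spread between libraries of a group, which may be technical. The mean normalized counts summed to between 898995 and 1316454 per table, and those of the tested members ran from 22.9 to 2005. The 6 T cell markers were all measured, Foxp3 among them. Of the 5 B cell markers, 1 reached a mean normalized count of 10 in the spleen receptor table and 0 in the islet receptor table. Pax5, a B cell factor, was at 0 in every table. Of the 8 myeloid markers, 3 reached that count in the spleen receptor table and 1 in the islet receptor table.

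The proteasome is the barrel-shaped protease that degrades proteins tagged with ubiquitin. Its 20S core is built from rings of alpha subunits, which form the gate, and beta subunits, some of which cut. A 19S cap with a ring of ATPases unfolds substrates and feeds them into the core. Lymphocytes, and other cells exposed to interferon gamma, replace the cutting subunits Psmb5, Psmb6 and Psmb7 by Psmb8, Psmb9 and Psmb10, which makes the immunoproteasome and alters the peptides available for MHC class I. The PA28 activator, made of Psme1 and Psme2, is induced by the same signal. Proteasome activity also serves NF-kB signalling in T cells, because the inhibitor of NF-kB is one of its substrates.

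Calls among these genes were few between the sites, near the share over all genes tested. No member passed between the receptors, where few genes passed at all. In 4-8 Tregs, 3 of 46 members rose in islets and 0 fell, beside 5.14% of all genes tested that rose and 2.84% that fell at an adjusted p (limma) of 0.05. In 12-4.4m1 Tregs, 2 of 46 rose and 0 fell, beside backgrounds of 4.63% and 2.18%. Between the receptors 0 of 46 passed in islets, where the background over all genes was 0.365%, and 0 of 46 passed in spleen, where it was 0.428%. With so few calls among all genes, 0 of 46 does not set the members apart. In the authors' deposited DESeq2 and Cuffdiff tables of the receptor comparisons, 0 members passed as well. The 1 member that rose in islets with both receptors was Psma7, an alpha subunit of the core.

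**Figure D1:**
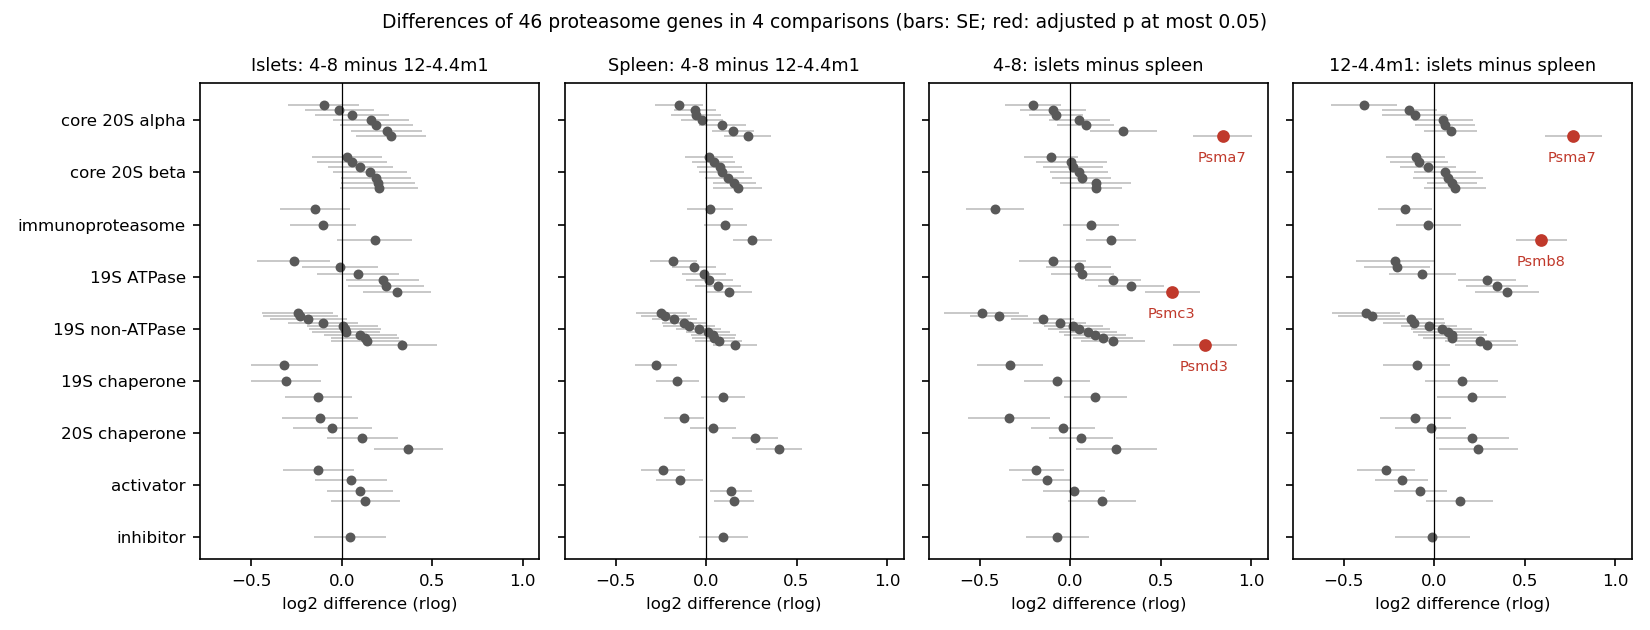
Differences of the 46 tested proteasome genes in the 4 comparisons, by role (rows); the x axis is the log2 difference of rlog values, bars are standard errors, and red points passed an adjusted p of 0.05. Most points lie within 0.5 of zero, and the red points are Psma7 in both tissue panels, Psmc3 and Psmd3 for 4-8, and Psmb8 for 12-4.4m1.

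Levels were compared between genes only per length, in FPKM, of which the authors' deposited table gives 1 value per group. In that table the immunoproteasome subunit Psmb8, the inducible form of Psmb5, led the members in islets, at 1493 FPKM in islet 4-8 and 1663 in islet 12-4.4m1. Psme2, the beta chain of PA28, led them in spleen, at 1410 FPKM for 4-8 and 1269 for 12-4.4m1. Psme2 has a near-identical copy, Psme2b, which the symbol pattern does not match, and reads could be split between them, so its values are uncertain. Psma7 was the highest of the alpha subunits in all 4 groups, and Psmb1, a structural beta subunit, was the highest of the 7 tested beta subunits outside the immunoproteasome, at 599 to 734 FPKM.

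The subunits of the cap had lower role medians than those of the core in the authors' deposited table, while single subunits overlapped. In islet 4-8, for example, Psmc3 of the cap was at 187 FPKM and Psma5 of the core at 121. The 7 tested alpha subunits had median levels of 233 to 260 FPKM over the 4 groups, and the 7 beta subunits had medians of 276 to 311. The 6 ATPases of the cap, Psmc1 to Psmc6, had medians of 66.7 to 79.1 FPKM, and the 11 other cap subunits had medians of 47.5 to 56.7. Within the latter, Psmd4, a receptor for ubiquitin chains, was the highest in every group, at 149 to 161 FPKM. By role medians, the chaperones that assemble the cap, Psmd5, Psmd9 and Psmd10, at 11.1 to 22.6, and the inhibitor Psmf1, at 13.8 to 15.2, were the lowest. Psmd10 itself reached 33.2 FPKM in spleen 12-4.4m1, above several members of other roles. 

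Each inducible cutting subunit exceeded its constitutive counterpart in all 4 groups of the authors' deposited table. The ratio of Psmb8 to Psmb5, the chymotrypsin-like pair, was 4.81 in islet 4-8, 5.10 in spleen 4-8, 8.22 in islet 12-4.4m1 and 4.34 in spleen 12-4.4m1. With 1 value per group, these ratios carry no spread between libraries. The mean normalized counts, which are not corrected for gene length, lay further apart. They were 2005 for Psmb8 and 107 for Psmb5 in the 4-8 tissue table, and 1401 and 60.3 in the 12-4.4m1 tissue table. Why the measures differ was not tested, so the size of the ratio is uncertain. The ratio of Psmb9 to Psmb6, the caspase-like site of the constitutive core, lay between 1.58 and 1.74. For Psmb10 and Psmb7, the trypsin-like pair, the ratio was 1.25 and 1.38 in islets and 1.79 and 1.85 in spleen, for 4-8 and 12-4.4m1 in that order.

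**Figure D2:**
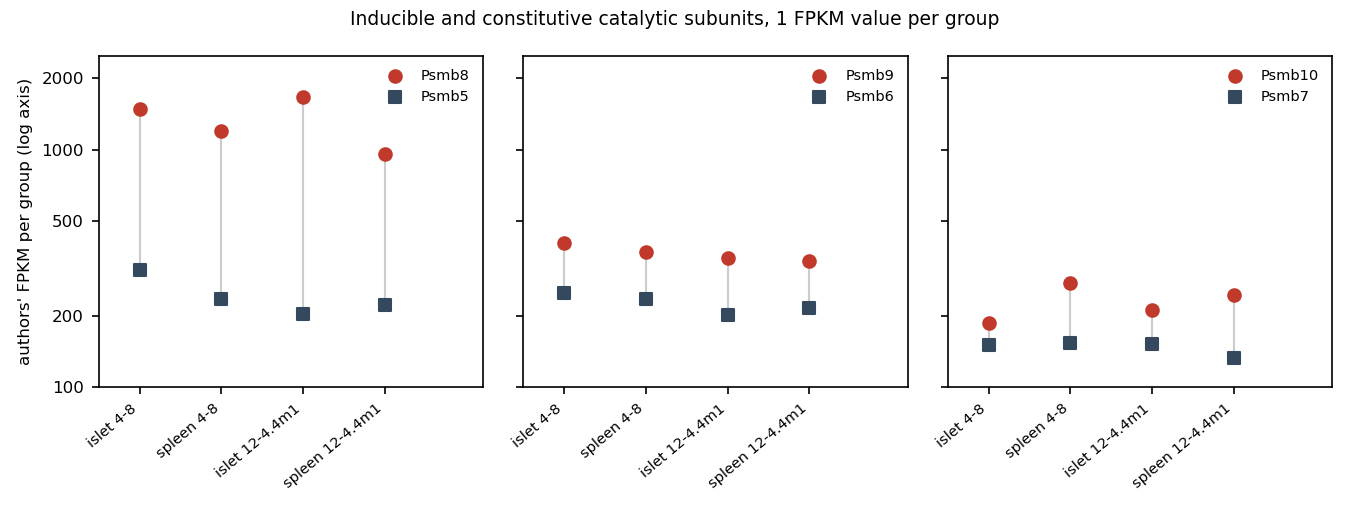
FPKM of each inducible cutting subunit (red) and its constitutive counterpart (dark squares) in the 4 groups, 1 value per group from the authors' deposited tables, on a log axis. Psmb8 lies above Psmb5 by 4.34 to 8.22 times, while the other pairs lie within 1.85 times of each other.

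Values per library are rlog values, a log2 scale on which each table was normalized on its own, so they are compared only within a table. Tissue differences are islets minus spleen, with the standard error (SE) of a limma fit over all genes tested, and adjusted p-values come from limma with Benjamini-Hochberg adjustment.

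Psma7 encodes an alpha subunit of the outer ring of the core. Its gene lies at chr2:180036374-180042433 on the minus strand (GRCm38). In islet 4-8 replicates 1, 2 and 3 its rlog values were 10.13, 9.69 and 10.39, and in spleen 4-8 replicates 1, 2 and 3 they were 9.13, 9.32 and 9.24. Every islet library lay above every spleen library, and the spleen libraries lay closer together. The difference was 0.84 ± 0.16 (SE), a 1.79-fold higher level in islets (limma, adjusted p = 0.00363).

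Psma7 showed the same order with the other receptor. The values were 9.36, 9.39 and 9.94 in islet 12-4.4m1 replicates 1, 2 and 3, against 8.74, 8.72 and 8.93 in spleen 12-4.4m1 replicates 1, 2 and 3. The groups again did not overlap. The difference was 0.77 ± 0.16 (SE), or 1.70-fold (limma, adjusted p = 0.00248). In FPKM, the authors' deposited tables list Psma7 at 1311 in islets and 572 in spleen for 4-8, and at 1253 and 599 for 12-4.4m1. In both tissue comparisons, every alternative fit kept Psma7 past the threshold.

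The other tested alpha subunits did not pass in either tissue comparison. For 4-8 they ranged from -0.21 for Psma4 to 0.29 for Psma1. For 12-4.4m1 they ranged from -0.39 for Psma4 to 0.089 for Psma2. Psma4 lay lower in islets with both receptors, with adjusted p-values (limma) of 0.474 and 0.232. In islet 12-4.4m1 its values were 6.65, 7.22 and 7.49, against 7.54, 7.51 and 7.47 in spleen, so that the groups overlapped only by 1 islet library, replicate 3. Without that library Psma4 passed, at -0.57 (limma, adjusted p = 0.0413). That refit left 2 islet libraries, both titled with Treg, against 3 spleen libraries titled with R. Tissue and title style, described below, cannot be told apart in it.

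The 7 tested beta subunits outside the immunoproteasome showed the smallest spread of tissue differences among the roles with more than 1 member. They ranged from -0.11 to 0.14 for 4-8 and from -0.10 to 0.11 for 12-4.4m1, and 0 of 7 passed in either. Their 95% intervals together ran from -0.42 to 0.55 and from -0.44 to 0.47. Psmb1, the most abundant of them, had values of 9.83, 9.52 and 9.73 in islet 4-8 and 9.38, 9.56 and 9.71 in spleen 4-8. Those libraries overlapped.

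Among the immunoproteasome subunits, Psmb8 passed the test in 12-4.4m1 Tregs. Psmb8 takes the place of Psmb5 in the inner ring, and its gene lies in the MHC region at chr17:34197721-34201454 on the plus strand (GRCm38). Its values were 10.54, 10.51 and 11.003 in islet 12-4.4m1 replicates 1, 2 and 3, and 10.14, 10.04 and 10.11 in spleen 12-4.4m1 replicates 1, 2 and 3. The islet libraries all lay above the spleen libraries, with replicate 3 highest. The difference was 0.59 ± 0.14 (SE), or 1.51-fold (limma, adjusted p = 0.00969). Without spleen 12-4.4m1 replicate 2 it was 0.56 and no longer passed (limma, adjusted p = 0.0552), nor did it without the mean-variance trend (adjusted p = 0.0564).

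Psmb8 did not pass in 4-8 Tregs. Its values there were 11.19, 10.88 and 11.13 in islets and 10.68, 10.999 and 10.84 in spleen, and the groups overlapped. The difference was 0.22 ± 0.14 (SE), with a 95% interval from -0.064 to 0.51 (limma, adjusted p = 0.358). The difference between the receptors in this tissue effect, 4-8 minus 12-4.4m1, was -0.37 ± 0.20 (SE), with a 95% interval from -0.77 to 0.039 (limma, adjusted p = 0.899).

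Psmb10, the inducible counterpart of Psmb7, lay on the other side. Its gene is at chr8:105935735-105938444 on the minus strand. In islet 4-8 the values were 8.34, 7.91 and 8.32, and in spleen 4-8 they were 8.51, 8.76 and 8.54. All 3 islet libraries lay below the spleen libraries, but the difference of -0.42 ± 0.16 (SE) did not pass (limma, adjusted p = 0.124). The authors' deposited Cuffdiff table called Psmb10 lower in islets, at 187 against 274 FPKM (q = 0.0455). For 12-4.4m1 the difference was -0.16 ± 0.15 (SE) and the groups overlapped.

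Psmb9, encoded beside Psmb8 at chr17:34181987-34187764, differed little by site. Its tissue difference was 0.11 ± 0.15 (SE) for 4-8 and -0.035 ± 0.18 for 12-4.4m1, with overlapping libraries in both. Of the 3 inducible subunits, Psmb8 rose with 12-4.4m1, while Psmb9 and Psmb10 did not pass. Within each library, Psmb8 exceeded Psmb5 by 4.57, 4.77 and 4.94 log2 units in islet 12-4.4m1, against 4.07, 4.02 and 4.64 in spleen 12-4.4m1. These differences overlapped by 1 spleen library, in which Psmb5 was low. Between the receptors in islets, the same excess was 4.69, 4.04 and 4.52 with 4-8 and 4.51, 4.71 and 4.91 with 12-4.4m1, which overlapped.

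The excess of Psmb10 over Psmb7 was smaller in islets. It was 1.17, 1.14 and 1.12 log2 units in islet 12-4.4m1, and 1.43, 1.65 and 1.19 in spleen 12-4.4m1, which did not overlap. With 4-8 it was 0.86, 0.68 and 1.23 in islets, and 1.48, 1.41 and 1.17 in spleen, which did. These rlog differences between a pair of genes are not corrected for gene length and were not tested.

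**Figure D3:**
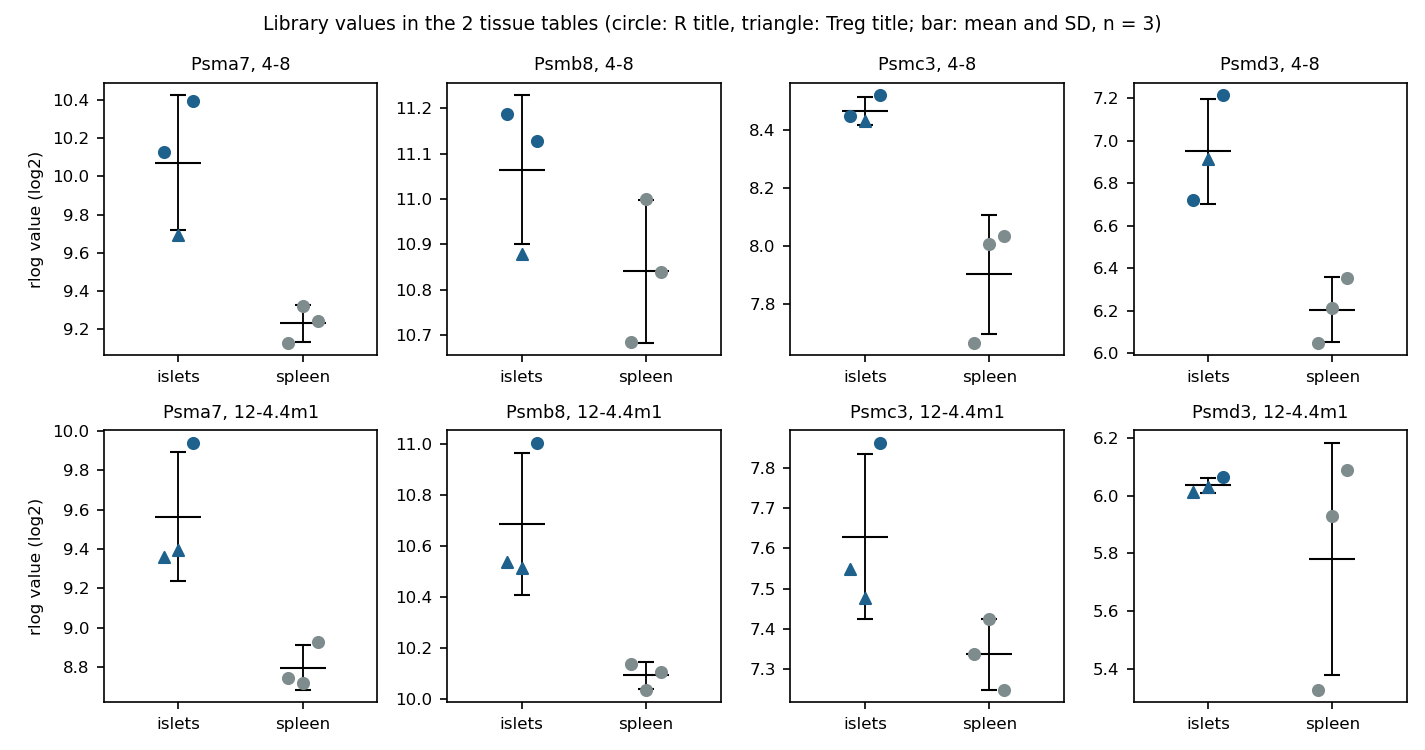
rlog values (log2, each panel with its own scale) of the 4 members called in either tissue comparison, by library; bars are the mean and SD of 3 libraries, and triangles mark libraries titled with Treg. Psma7 is separate between islets and spleen in both rows, while Psmb8 overlaps for 4-8 and Psmd3 for 12-4.4m1.

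Of the 6 ATPases of the cap, 1 rose in 4-8 Tregs and 0 passed in 12-4.4m1 Tregs. The gene was Psmc3, at chr2:91054009-91066369 on the plus strand. Its values were 8.45, 8.43 and 8.52 in islet 4-8 and 7.67, 8.01 and 8.04 in spleen 4-8. The islet libraries lay close together and above all spleen libraries. The difference was 0.56 ± 0.15 (SE), or 1.48-fold (limma, adjusted p = 0.0284). This call was lost without the mean-variance trend (limma, adjusted p = 0.0520) and depended on single libraries: the adjusted p (limma) was 0.194 without spleen 4-8 replicate 1, 0.0738 without its replicate 2, 0.0717 without its replicate 3 and 0.0697 without islet 4-8 replicate 1.

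With 12-4.4m1, Psmc3 also lay higher in every islet library, at 7.55, 7.48 and 7.86 against 7.34, 7.43 and 7.25. That difference was 0.29 ± 0.16 (SE) and did not pass (limma, adjusted p = 0.316). Psmc5, another ATPase of the ring, differed by 0.34 and 0.35 for 4-8 and 12-4.4m1, with adjusted p-values (limma) of 0.299 and 0.262. Psmc4 differed by 0.048 and 0.40, with adjusted p-values (limma) of 0.912 and 0.191. For the other 3 ATPases, Psmc1, Psmc2 and Psmc6, the differences lay between -0.22 and 0.24 over both receptors.

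Of the 11 other cap subunits, Psmd3, a scaffold protein of the lid, rose in 4-8 Tregs. Its gene is at chr11:98682554-98695979 on the plus strand. The values were 6.72, 6.92 and 7.21 in islet 4-8, and 6.05, 6.21 and 6.35 in spleen 4-8, without overlap. The difference was 0.75 ± 0.18 (SE), or 1.68-fold (limma, adjusted p = 0.0139). The adjusted p (limma) was 0.0980 without spleen 4-8 replicate 1 and 0.0600 without its replicate 2.

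With 12-4.4m1, Psmd3 took values of 6.01, 6.03 and 6.06 in islets and 5.33, 5.93 and 6.09 in spleen. The spleen libraries spread on both sides of the islet libraries. The difference was 0.25 ± 0.20 (SE) and did not pass (limma, adjusted p = 0.517). The difference between the receptors in the tissue effect of Psmd3 was 0.49 ± 0.27 (SE), with a 95% interval from -0.063 to 1.05 (limma, adjusted p = 0.899), so a receptor difference was not shown.

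Some cap subunits lay lower in islets without passing. Psmd2, a large scaffold of the base, differed by -0.39 ± 0.16 (SE) in 4-8 Tregs, with islet values of 7.08, 7.02 and 6.76 below spleen values of 7.24, 7.40 and 7.39 (limma, adjusted p = 0.151). Psmd6, a lid subunit, differed by -0.49 ± 0.21 (SE) with 4-8 and -0.38 ± 0.19 with 12-4.4m1. Its islet 4-8 values were 6.23, 5.36 and 5.78 against 6.28, 6.16 and 6.39 in spleen, which overlapped. The adjusted p-values (limma) of Psmd6 were 0.166 and 0.261, and it passed for 4-8 only without islet 4-8 replicate 1, at -0.71 (adjusted p = 0.0493). Psmd14, the enzyme of the lid that removes ubiquitin chains, differed by -0.15 and 0.10, and the ubiquitin receptor Psmd4 by -0.058 and -0.029.

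The assembly chaperones, the activators and the inhibitor gave 0 calls in both tissue comparisons. The 4 chaperones of the core, Psmg1 to Psmg4, ranged from -0.34 to 0.25 for 4-8 and from -0.11 to 0.24 for 12-4.4m1. The 3 chaperones of the cap ranged from -0.33 to 0.14 and from -0.097 to 0.20. Psme1 differed by -0.13 and -0.078 and Psme2 by -0.19 and -0.18, so both chains of PA28 had negative differences that did not pass with either receptor. Psme2b, the copy of Psme2, differed by -0.56 and -0.30, with adjusted p-values (limma) of 0.0595 and 0.378. Psme3, a nuclear activator, and Psme4, a large activator that binds the core, differed by 0.18 and 0.023 for 4-8 and by 0.14 and -0.27 for 12-4.4m1. Psmf1, the inhibitor, differed by -0.071 and -0.011.

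Over all 46 members the median tissue difference was 0.049 for 4-8 and 0.014 for 12-4.4m1, beside -0.012 and -0.0023 over all genes tested. Of the members, 29 were positive and 17 negative with 4-8, and 23 were positive and 23 negative with 12-4.4m1. Libraries of islets and spleen did not overlap for 6 of 46 members with 4-8 and 5 of 46 with 12-4.4m1, beside 27.4% and 24.1% of all genes tested. With 4-8, 3 of these were higher and 3 lower in islets, beside 14.3% and 13.1%, and with 12-4.4m1, 4 were higher and 1 lower, beside 13.2% and 10.9%. At an unadjusted p under 0.05 (limma), 6 of 46 members differed with 4-8 and 4 of 46 with 12-4.4m1, beside 22.2% and 20.3%. The members called in either direction made up 6.52% and 4.35% of those tested, beside backgrounds of 7.98% and 6.81%. In bulk RNA of sorted cells, fewer cells that express a gene and less of its RNA per cell cannot be told apart.

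The tissue tables of the receptors share no library. Across the 46 members, their tissue differences correlated with r = 0.629 (across genes, which are not independent replicates), and the r over the 8298 genes tested in both was 0.707. The sign was shared by 32 of 46 members, or 69.6%, beside 69.1% of all genes. When the tissue effects were compared directly, 0 of 46 members passed and 1 gene of 8298, or 0.0121%, did. At an unadjusted p under 0.05, 0 members differed by this limma fit, beside 5.57% of all genes. For 45 of 46 members the estimated difference of tissue effects was within 0.5 of zero, with a median SE of 0.25. The exception was Psmg3, a chaperone of the core, at -0.58 ± 0.33 (SE).

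In islets, the receptors were compared as 4-8 minus 12-4.4m1, and 0 of 46 members reached an unadjusted p under 0.05 by limma, beside 6.78% of all genes. The median difference was 0.058, beside -0.0040 over all genes, and 30 members were positive and 16 negative. All 95% intervals lay between -0.70 and 0.76. Psmg2, which with Psmg1 guides the alpha ring, had the smallest p, with values of 5.44, 5.30 and 5.13 in islet 4-8 against 4.93, 4.77 and 5.08 in islet 12-4.4m1. The groups did not overlap, and the difference of 0.37 ± 0.19 (SE) did not pass (limma, adjusted p = 0.755).

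Psmd3 and Psmc3 were the other members whose islet libraries did not overlap. Psmd3 took 6.27, 6.47 and 6.74 in islet 4-8 and 6.15, 6.15 and 6.18 in islet 12-4.4m1, a difference of 0.33 ± 0.19 (SE). Psmc3 took 7.94, 7.93 and 8.01 against 7.58, 7.50 and 7.88, a difference of 0.31 ± 0.19 (SE). Neither passed, with adjusted p-values (limma) of 0.795 and 0.807. The count was 3 of 46 higher and 0 lower with 4-8, beside 5.92% and 5.99% of all genes tested, or 11.9% in either direction. The 4-8 islet libraries also enter the 4-8 tissue comparison, so these values are no separate support for the calls there.

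The differences by role were small in islets. All 7 tested beta subunits had positive differences, from 0.028 to 0.20, and the 3 chaperones of the cap had negative ones, from -0.32 to -0.13. Psmb8 differed by -0.10, Psmb9 by 0.18 and Psmb10 by -0.15. Psme1, Psme2, Psme3 and Psme4 lay between -0.13 and 0.13. None of these passed. Psma7 differed by 0.057 ± 0.20 (SE), with values of 9.69, 9.25 and 9.98 against 9.38, 9.40 and 9.96.

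In spleen the spread between libraries was smaller, with a median SE of 0.12 over the members against 0.20 in islets. By limma, 4 of 46 members had an unadjusted p under 0.05, beside 7.93% of all genes, and 0 passed after adjustment. Psmg3 took 5.52, 5.73 and 5.29 in spleen 4-8 against 5.14, 5.05 and 5.14 in spleen 12-4.4m1, a difference of 0.40 ± 0.13 (SE; limma, adjusted p = 0.244). Psmb8 took 10.70, 11.05 and 10.88 against 10.66, 10.57 and 10.63, a difference of 0.26 ± 0.11 (SE; limma, adjusted p = 0.511). For both genes the 4-8 libraries lay above those of 12-4.4m1, by little at the nearest pair for Psmb8. Psmg2 differed by 0.27 ± 0.13 (SE) and Psmd5, a chaperone of the cap, by -0.27 ± 0.12. Spleen libraries of the receptors did not overlap for 8 of 46 members, beside 13.3% of all genes tested. Of these, 3 were higher and 5 lower with 4-8, beside 6.79% and 6.48%.

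Psma7 differed by -0.061 ± 0.12 (SE) between the receptors in spleen, with values of 9.07, 9.28 and 9.20 against 9.18, 9.18 and 9.37. Psmb9 and Psmb10 differed by 0.022 and 0.11. All 7 tested beta subunits again had positive differences, from 0.016 to 0.17, and 0 of 7 passed. Over all 46 members the median was 0.040, beside -0.00091 over all genes, and every 95% interval lay between -0.53 and 0.66. The islet and spleen receptor tables share no library, and the members' differences in them correlated with r = 0.276 across genes, beside 0.216 for the 8049 genes tested in both. The sign was shared by 26 of 46 members, or 56.5%, beside 52.9% of all genes.

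Within the islet groups the libraries differed by the style of their titles, which is R in some and Treg in others. The Treg style was used for islet 4-8 replicate 2 and islet 12-4.4m1 replicates 1 and 2, and all spleen titles had the R style. What the style stands for is not given in the sources used here. In the islet receptor table, the median deviation of the members from their gene means was 0.13 and 0.093 in islet 4-8 replicates 1 and 3 and 0.15 in islet 12-4.4m1 replicate 3. It was -0.12 in islet 4-8 replicate 2 and -0.10 and -0.11 in islet 12-4.4m1 replicates 1 and 2. So the 3 R libraries were high and the 3 Treg libraries low, whichever receptor they carried. Over all genes tested, the same medians lay between -0.0042 and 0.0054.

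**Figure D4:**
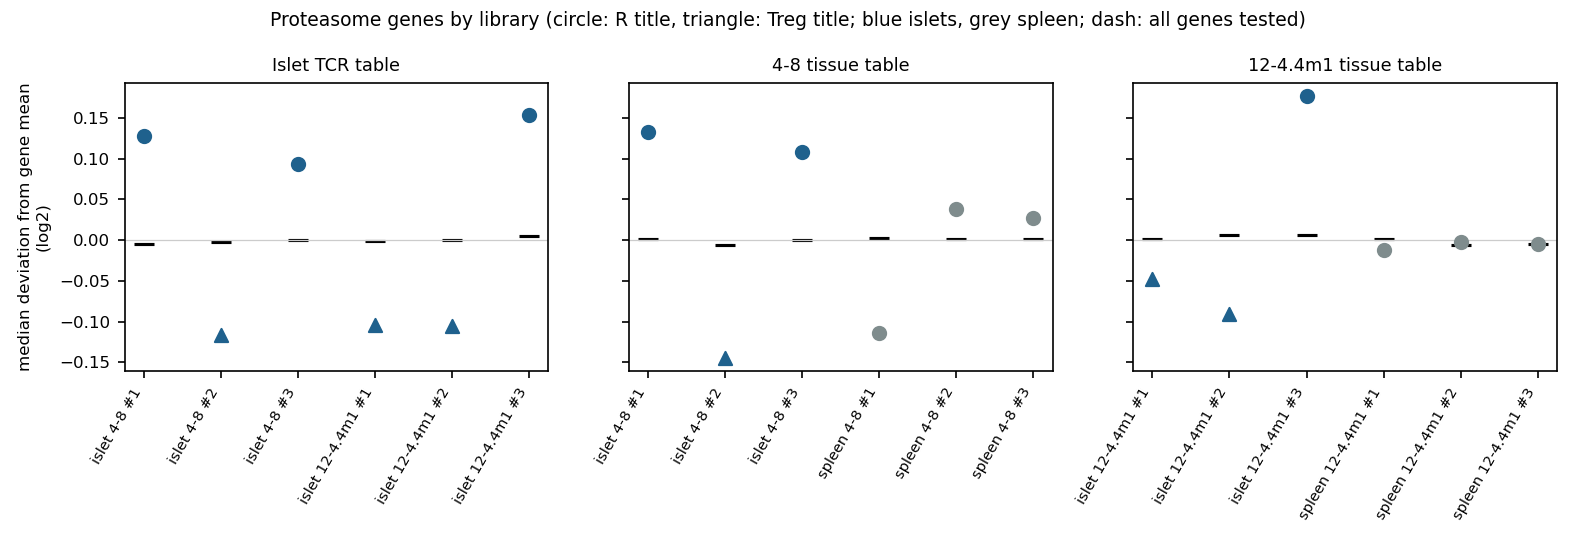
Median deviation of the 46 members from their gene means (log2, y axis) in each library of 3 tables, with dashes for all genes tested. Circles (R titles) of islets lie at 0.093 to 0.18 and triangles (Treg titles) at -0.14 to -0.048, while the spleen library that stands apart, 4-8 replicate 1, lies at -0.11.

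With the receptor and the title style both in the limma fit of the islet table, 0 of 46 members passed for style and 60 of 8212 genes, or 0.731%, did. At an unadjusted p under 0.05, 16 of 46 members differed, all higher in the R libraries, beside 13.3% of all genes. The median difference, R minus Treg, was 0.19 over the members, with 38 of 46 positive, beside -0.0034 over all genes. Psma7 had the smallest p, with 0.58 ± 0.16 (SE; limma, adjusted p = 0.0661). Psmb6 differed by 0.58 ± 0.18 and Psmb9 by 0.52 ± 0.17, and Psmb8 by 0.39 ± 0.15. These are as large as the tissue differences of most members.

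The style is uneven between the islet groups and absent from the spleen, so it bears on each comparison with islets. Without islet 4-8 replicate 2, the tissue difference of Psma7 was 1.03, that of Psmd3 0.76 and that of Psmc3 0.58. The adjusted p-values (limma) were then 4.3e-05, 0.00974 and 0.0146, and Psmc5 passed as well, at 0.54 (adjusted p = 0.0250). Calls rose over all genes too, to 1211 of 8981 in that refit from 717 with all libraries. In 12-4.4m1, leaving out both Treg libraries left 1 islet library, which is assumed to vary like the others. The differences were then 1.14 for Psma7 and 0.91 for Psmb8. Psmc5 differed by 0.67. With 1 islet library, calls are not counted for that fit. Psmb9 differed by 0.45 there, against -0.035 with all libraries. Between the receptors in islets, 0 members passed without the 3 Treg libraries.

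Genes that work with the proteasome were read from lists by function. Their calls stand beside 5.14% of all genes tested that rose in islets and 2.84% that fell with 4-8. With 12-4.4m1 these shares were 4.63% and 2.18%. In the assembly and transcription list, which holds the core maturation factor Pomp and the transcription factors Nfe2l1 and Nfe2l2, 0 of 7 tested genes passed for 4-8 and 0 of 6 for 12-4.4m1. Pomp differed by 0.28 ± 0.15 (SE) between islets and spleen for 4-8, with islets above spleen in every library (limma, adjusted p = 0.289). Nfe2l2, the antioxidant response factor, differed by 0.44 ± 0.20 (SE) for 12-4.4m1 (limma, adjusted p = 0.215).

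Among ubiquitin receptors, hydrolases and shuttles bound to the proteasome, 0 of 13 passed with 4-8 and 1 of 13 rose with 12-4.4m1. That gene was Zfand5, a ubiquitin-binding activator of the proteasome. In 12-4.4m1 Tregs it was higher in islets by 0.72 ± 0.18 (SE; limma, adjusted p = 0.0177). With 4-8 it differed by 0.59 ± 0.19 (SE) and did not pass (limma, adjusted p = 0.0659). Among ubiquitin genes, E1 enzymes and the p97 unfoldase, 0 of 9 passed with 4-8 and 2 of 9 rose with 12-4.4m1. Among them was the p97 cofactor Nploc4, by 0.72 ± 0.20 (SE; limma, adjusted p = 0.0246).

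In the list for the supply of MHC class I peptides, 0 of 12 passed with 4-8 and 1 of 12 rose with 12-4.4m1. That gene was Nlrc5, the transactivator of MHC class I genes, at 9.16 ± 0.045 in islets and 8.46 ± 0.20 in spleen (SD, n = 3). Its difference was 0.70 ± 0.14 (SE; limma, adjusted p = 0.00300), and with 4-8 it was 0.16. The transporter genes Tap1 and Tap2, which lie in the same region as Psmb8, did not pass with either receptor.

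Of the interferon response list, most genes that passed were lower in islets. With 4-8, 0 of 16 rose in islets and 4 fell: Irf9 by 0.83, Gbp4 by 0.78, Ifit3 by 0.74 and Gbp7 by 0.62 on the log2 scale. Over all genes tested, 5.14% rose and 2.84% fell with 4-8, and 4.63% rose and 2.18% fell with 12-4.4m1. With 12-4.4m1, 1 of 15 rose, the GTPase gene Igtp, by 0.80 ± 0.14 (SE; limma, adjusted p = 0.000763). In the same comparison Gbp7 fell by 0.64 and Ifit1 by 0.96. The median of the list was -0.49 with 4-8 and -0.074 with 12-4.4m1, beside -0.012 and -0.0023 over all genes. Between the receptors, 0 genes of any of these 5 lists passed in islets or in spleen, where 0.365% and 0.428% of all genes did.

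Genes of the heat shock and dissociation stress list and of the exocrine acinar list moved with the tissue comparisons. The first list holds Fos, Jun and Egr1 beside heat shock genes. The names of the lists do not show what raised these transcripts, and the cause was not tested. All 14 genes of the heat shock and dissociation stress list rose in islets with both receptors. Their summed level ran from 6872 to 7993 in islet 4-8 against 2346 to 2460 in spleen 4-8, and from 6752 to 8522 against 2032 to 2389 with 12-4.4m1. The summed level here adds 2 raised to each rlog value. Between the receptors 0 genes of this list passed, and its sums were 6181 to 7019 in islet 4-8 against 7606 to 9539 in islet 12-4.4m1, and 2056 to 2176 against 2330 to 2747 in spleen. The acinar list of 12 genes summed to 113 to 213 in islet 4-8 against 75.9 to 84.5 in spleen 4-8, and to 194 to 255 against 90.2 to 101 with 12-4.4m1. Of the acinar genes tested, 7 of 9 rose in islets with 4-8 and 7 of 8 with 12-4.4m1. Over all genes tested, 5.14% and 4.63% rose. In the spleen receptor table, which holds the same 6 spleen libraries, 7 of the 12 acinar genes were at 0, 0 reached a mean normalized count of 10, and the list summed to 12.3 to 13.8. The rlog transform draws low values toward the mean of a table, so the spleen sums of the tissue tables do not show that these genes were read in spleen, and no fold is taken from them. The 6 T cell markers also summed higher in islets, at 6658 to 7418 against 5405 to 5923 with 4-8 and at 4083 to 4483 against 3379 to 3980 with 12-4.4m1. The part of any of these in the differences of Psma7, Psmb8, Psmc3 and Psmd3 was not tested. B cell markers summed to 5.80 to 6.28 in islet 4-8 against 6.16 to 9.26 in spleen 4-8, which overlapped, and to 4.31 to 4.54 against 5.05 to 5.52 with 12-4.4m1, which did not. The endothelial and stromal list of 6 genes summed to 20.3 to 26.7 in islet 4-8 against 29.7 to 39.6 in spleen 4-8, without overlap, and to 20.01 to 31.2 against 30.6 to 32.1 with 12-4.4m1, with overlap. Its 1 tested gene, the adhesion gene Pecam1, fell in islets with 4-8, by 0.67 (limma, adjusted p = 0.0367), and differed by -0.48 with 12-4.4m1 (adjusted p = 0.181). Which cells its transcripts came from was not tested. In the 4-8 tissue table Cdh5, Col3a1 and Sparc of that list were at 0. The myeloid list and the islet endocrine list of 7 genes overlapped between islets and spleen with both receptors. Myeloid sums were 452 to 551 in islet 4-8 against 452 to 547 in spleen 4-8, and 247 to 337 against 305 to 320 with 12-4.4m1. The part of these lists was not tested either.

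The stretches before the gene starts were read for known motifs, since Psma7 and Psmb8 rose and Psmb5 did not pass. Of the 46 tested members, 39 have an entry in the RefSeq promoter table (GRCm38.p6), and Psmb1, Psmb2, Psmb7, Psmc3, Psmd3, Psmd7 and Psmg2 have none. Both strands of the 250 bases before each start were searched, over 42 windows of members and 32851 windows of all genes. The short sites are shown 5′ to 3′ with the motif in capitals, on the strand of the gene, for the members that rose and for the constitutive counterpart of Psmb8.
Psma7, chr2:180042646-180042670, minus strand, CCAAT box: ctgcctgtcgCCAATgcgcgctcga
Psmb8, chr17:34198088-34198116, plus strand, gamma-activated site: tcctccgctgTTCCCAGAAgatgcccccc
Psmb5, chr14:54618024-54618052, minus strand, antioxidant response element: cgtgaagttgTGACGTCGCggcgttgcca

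The CCAAT box, the letters CCAAT, was in 31.0% of the members' windows and 33.8% of all windows. The gamma-activated site, TTCNNNGAA, was in 4.76% and 7.02%, with Psmb8 and Psmg1 as the members that hold it. The antioxidant response element, TGACNNNGC, was in 11.9% and 10.2%, and the members were Psmb5, Psmb6, Psmc6, Psmd9 and Psmd12. The interferon-stimulated element, GAAA and GAAA with any 2 bases between, was in 7.14% and 2.98%, held by Psmb3, Psmd4 and Psmd9. The heat shock element, GAA, TTC and GAA with any 2 bases between each, was in 0% and 0.466%. No motif of these contains another. A match is a description of letters and not a site of binding, and the Psma7 and Psmb8 sites lie in stretches that GENCODE also annotates as exons of Ss18l1 and of another Psmb8 transcript.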

How the data were processed

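Sorted cells were lysed, reverse transcribed and amplified, and Nextera XT libraries were sequenced, per the labels. The submitters' processing notes name STAR 1.1.0, TopHat 1.0.0, DESeq, DESeq2 1.1.0, Cufflinks and build mm10 (GRCm38), without roles. The authors deposited, per comparison, rlog values on a log2 scale, a DESeq2 table (mean normalized count, which is the signal used as filter, Wald score, log2 fold change and p-value) and a Cuffdiff table with 1 FPKM per group. FPKM were taken from the tissue tables. The rlog transform shrinks low genes, so their differences are understated. The depth of each library is not given in the sources used here.

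Each table was fitted alone with limma 3.58.1 (R 4.3.3, eBayes with trend, 3 against 3 libraries, 2-sided) on genes with a mean normalized count of at least 10. Tissue effects were compared in 1 fit of both tissue tables. The scripts were tested on simulated data. In the islet receptor table, 1 column of the 4-8 group matches no title and was called replicate 3 by elimination. The descriptions of spleen replicate 2 of each receptor list the other receptor's tissue table, while the columns follow the titles, which were used. Rows of repeated symbols, 4 in all, were left out. Members, lists and tests were chosen with earlier results of these data known. The members to name were set, per comparison, as the 10 with the smallest p, those past an adjusted p of 0.05, and always Psmb5 to Psmb10 and Psme1 to Psme4. Some of these enter the text only within a range or count, or are not reported here. From each list of related genes, up to 4 that passed were named, or the 1 with the smallest p. Some genes of these lists are not reported here. Other members are named as examples by role, chosen after their values were seen. Positions are from GENCODE vM21.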

Additional observations from a re-analysis of the deposited data

How the results depend on the processing

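Counts of members called kept to 0 between the receptors and for the difference of tissue effects under every alternative run. For tissue in 4-8, the 3 calls ranged from 1 to 4 when 1 library was left out. There was 1 without spleen 4-8 replicate 1 or 2, and there were 4 without islet 4-8 replicate 2. Without the mean-variance trend 2 were left, and Psmc3 was lost. Over all 8981 genes, 717 passed in the main fit, against 306 and 370 without spleen 4-8 replicates 1 and 2. The count over all genes was 1211 without islet 4-8 replicate 2 and 649 without the trend. For tissue in 12-4.4m1, the 2 calls ranged from 1 (without spleen 12-4.4m1 replicate 2) to 3 (without islet 12-4.4m1 replicate 3). Without the mean-variance trend 1 was left. Over all 8438 genes, 575 passed in the main fit, 313 and 610 in those 2 refits and 480 without the trend. Leaving out the libraries titled with Treg leaves 1 islet library, so no count is given for that fit. The replicate number as a block (replicate block) gave 0, 0, 3, 2 and 0 calls for islet receptor, spleen receptor, tissue in 4-8, tissue in 12-4.4m1 and the difference of tissue effects, as without it. Same-numbered libraries correlated between -0.12 and 0.21 and are not shown to be pairs. In spleen, each library correlated best with its own number. The setting without the Treg titles, for the islet receptors, and the title style in the fit of the difference of tissue effects were chosen after seeing the data.

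Over 90 values of named members, 1448 refits gave 1362 of the same direction and call, 9 weaker, 6 stronger and 71 of the opposite sign, all 71 where neither value passed. The causes were not tested. In the authors' deposited Cuffdiff table, the sign changed for Psmb7 between receptors in islets (-0.0072), Psmb7 by tissue in 4-8 (-0.036), and Psmb5 (-0.13) and Psmb9 (0.035) by tissue in 12-4.4m1. Without the Treg titles it changed between receptors in islets for Psmd5 (0.029), Psmb5 (-0.028), Psmb9 (-0.21), Psmb10 (0.12), Psme1 (-0.055) and Psme3 (0.19). By tissue in 4-8 it changed for Psmb5 (-0.035) and Psme4 (-0.078), and by tissue in 12-4.4m1 for Psmb6 (0.16), Psmb9 (0.45), Psme1 (0.13), Psme2 (0.034) and Psme3 (-0.092). Without spleen replicate 2 of both receptors, Psmb6 was -0.0078 and Psmb9 -0.12 between receptors in spleen. The difference of tissue effects became 0.00041 for Psmb5 and 0.0061 for Psme2 with centred libraries, 0.016 for Psmb5 from the receptor tables, and 0.0033 for Psmb5, -0.084 for Psmb6 and -0.025 for Psmb9 with title style.

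With 1 library left out, values that changed sign ranged as follows. Between receptors in islets, Psmb7 ranged from -0.076 to 0.12, Psmb8 from -0.19 to 0.058, Psme1 from -0.013 to 0.21 and Psme4 from -0.048 to 0.21. Between receptors in spleen, Psmb9 ranged from -0.089 to 0.10. By tissue in 4-8, Psmb5 ranged from -0.035 to 0.14, Psmb6 from -0.18 to 0.26, Psmb7 from -0.096 to 0.10 and Psme4 from -0.078 to 0.19. By tissue in 12-4.4m1, Psmb5 ranged from -0.12 to 0.19, Psmb6 from -0.23 to 0.0096, Psmb9 from -0.28 to 0.12 and Psme1 from -0.18 to 0.034. For the difference of tissue effects, Psmb5 ranged from -0.12 to 0.18, Psmb6 from -0.081 to 0.37, Psmb9 from -0.0053 to 0.39, Psme1 from -0.17 to 0.053, Psme2 from -0.13 to 0.14 and Psme3 from -0.12 to 0.17. Without library depths, no floor can be given for low genes such as Psmb11.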
